A study of Mus musculus with 31 samples.

Results

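Tau fibrils and herring testis DNA (HT-DNA) were compared directly in wild-type (WT) primary microglia, with the 3 tau libraries set against the 3 HT-DNA libraries. These 6 libraries are 6 of the 31 samples of the series and were chosen by their labels alone, without regard to any measured value. The cells came from the cortices of pups at postnatal day 1 to 3 and were grown as mixed glia for 7 to 10 days, after which GM-CSF, a myeloid growth factor, was added to expand the microglia. The isolated microglia then received 2 µg/ml of tau fibrils (the 0N4R isoform of human tau) or 1 µg/ml of HT-DNA, and RNA was collected 6 h later. The doses of both stimuli differed, and each was given at 1 dose and 1 time. Whether HT-DNA was given to these cells with a transfection reagent is not given in the sources used here. The same 2 stimuli were given to microglia of Cgas KO mice (Cgas-/-, no functional cGAS), in 3 libraries each, and 3 WT vehicle libraries give the background level of each gene but entered no test of the WT comparison. Per the study's legends, the libraries of a group were biologically independent samples.

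Double-stranded DNA in the cytosol is bound by cGAS, which makes a cyclic dinucleotide that activates STING. STING in turn drives the kinase TBK1 and the transcription factor IRF3, and the interferon-β then secreted acts through its receptor to raise interferon-stimulated genes. Aggregated proteins are also sensed by microglia through surface receptors that act on NF-kB, the transcription factor family behind most classical inflammatory cytokines. Herring testis DNA is a standard agonist of cGAS.

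The 6 libraries held 18834749 to 21452016 reads counted in genes, and mitochondrial genes took 1.65% to 1.86% of them. Microglial markers were high and alike in both groups (13 markers, summed level 9219 to 9478 CPM, a gene's reads relative to all reads of its library, with HT-DNA and 9330 to 9481 with tau), whereas markers of lymphocytes summed to less than 1 CPM in every library. The first principal component held 63.5% of the variance and separated the groups. Cgas, named Mb21d1 in the count table, stood at 39.5, 39.1 and 44.3 CPM in the HT-DNA libraries and 35.3, 33 and 33.7 CPM in the tau libraries of WT cells, against 3.76, 3.93 and 4.18 CPM and 7.45, 6.82 and 7.04 CPM in Cgas KO cells, so that the knockout labels held in every library. Levels are given throughout as normalized CPM (scaled by library size and TMM factor) for replicates 1, 2 and 3 in that order, or as mean ± SD with n = 3, and log2 fold changes are tau over HT-DNA, so that a positive value is a higher level with tau.

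Of 12709 genes that passed the filter on low counts, 220 were higher with tau (1.73%) and 208 were higher with HT-DNA (1.64%), in edgeR's quasi-likelihood test with thresholds of 0.05 for the adjusted p and of 1 for the size of the log2 fold change. The median log2 fold change over all tested genes was 0.014. Most differences were modest, with a median size of 1.34 on the log2 scale among genes higher with tau and 1.28 among genes higher with HT-DNA. Large differences were more frequent on the tau side, where 38 genes passed 2 on the log2 scale, against 9 on the HT-DNA side. The 3 tau libraries lay entirely above the 3 HT-DNA libraries in 216 of the 220 genes, and entirely below in 197 of the 208, while over all tested genes such a separation was found in 23.7% and 24.1%. Without the minimum fold change the test found 2305 genes higher with tau (18.1%) and 2513 higher with HT-DNA (19.8%).

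**Figure D1:**
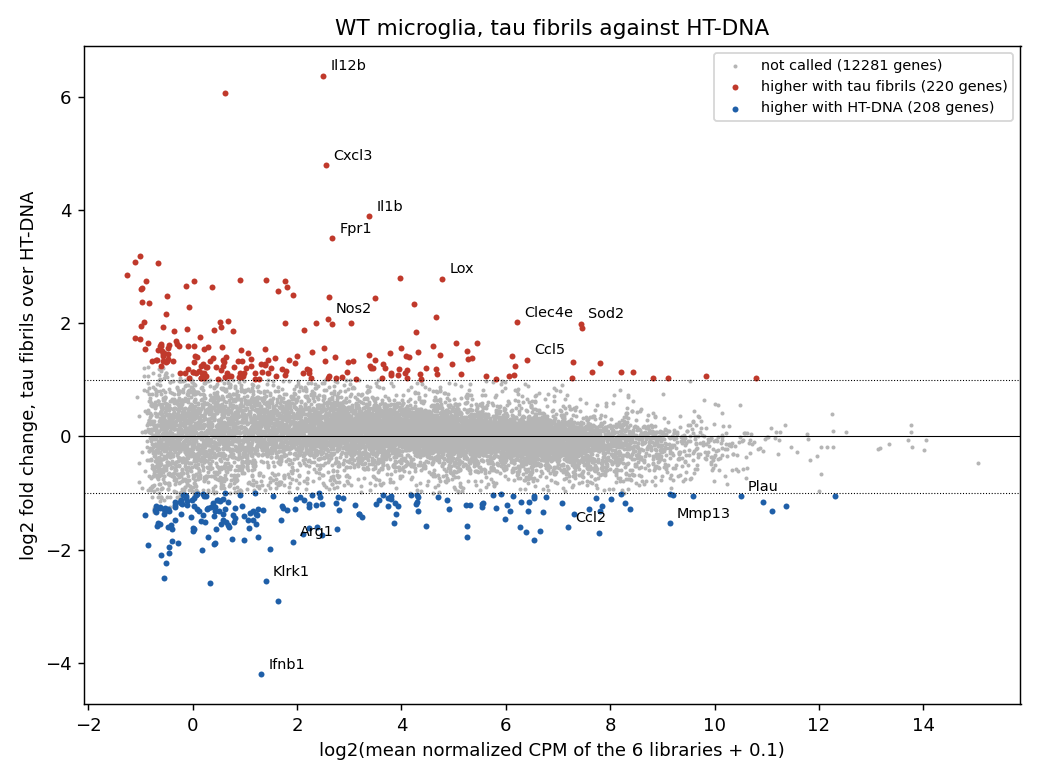
All 12709 tested genes in WT microglia, with the mean level of the 6 libraries on the x axis (log2 of normalized CPM plus 0.1) and the log2 fold change of tau fibrils over HT-DNA on the y axis. The 220 red genes were higher with tau and the 208 blue genes higher with HT-DNA, the dotted lines mark a log2 fold change of 1 in either direction, and Il12b and Ifnb1 lie at the ends.

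The largest differences on the tau side included secreted inflammatory proteins. Il12b, the shared p40 subunit of interleukins 12 and 23 (chromosome 11, 44400063 to 44414033 on the plus strand of GRCm38), stood at 10.5, 8.93 and 13.6 CPM with tau but at 0.326, 0.0538 and 0 CPM with HT-DNA and 0, 0.216 and 0.108 CPM with vehicle (log2 fold change 6.37, SE 0.37, adjusted p = 1.22e-11). It was close to absent in all libraries without tau. Il1b, which encodes the precursor of interleukin 1β, reached 20.2, 13.5 and 24.4 CPM with tau and 1.14, 0.753 and 2.02 CPM with HT-DNA, a 14.8-fold difference (adjusted p = 5.23e-11), above a vehicle level of 0.526 ± 0.0385 CPM. Il6 had the same order at a lower level, 3.33, 1.37 and 2.54 CPM against 0.271, 0.592 and 0.873 CPM (log2 fold change 2.04, SE 0.40, adjusted p = 0.00032). The groups did not overlap for any of these 3 cytokines. Tnf, by contrast, was 92.9 ± 15.2 CPM with tau and 104 ± 5.9 CPM with HT-DNA against 21.8 ± 2.11 CPM with vehicle, and the difference between the stimuli missed the threshold (log2 fold change -0.16, adjusted p = 0.111).

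The chemokines that draw neutrophils through the receptor CXCR2 had the same direction as Il1b. All 3 tested members of that list were higher with tau, beside 1.73% of all tested genes. The other 3 listed members (Cxcl5, Cxcl15 and Ppbp) had too few counts to be tested. Cxcl3 stood at 11, 9.87 and 12.6 CPM with tau and 0.434, 0.484 and 0.273 CPM with HT-DNA (log2 fold change 4.79, SE 0.23, adjusted p = 8.41e-13). Its vehicle level of 1.75 ± 0.427 CPM lay above the HT-DNA level. Cxcl2 rose to 31.8, 25.3 and 36.7 CPM from 5.43, 5.06 and 7.91 CPM with HT-DNA (log2 fold change 2.35, adjusted p = 3.55e-11). Cxcl1 was at 0 in the 3 vehicle libraries, at 0.163, 0.161 and 0.327 CPM with HT-DNA and at 2.02, 1.09 and 1.14 CPM with tau (log2 fold change 2.66, adjusted p = 0.000109). The 3 genes are neighbours among the tested genes of chromosome 5, between positions 90786103 and 90905938 of GRCm38.

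**Figure D2:**
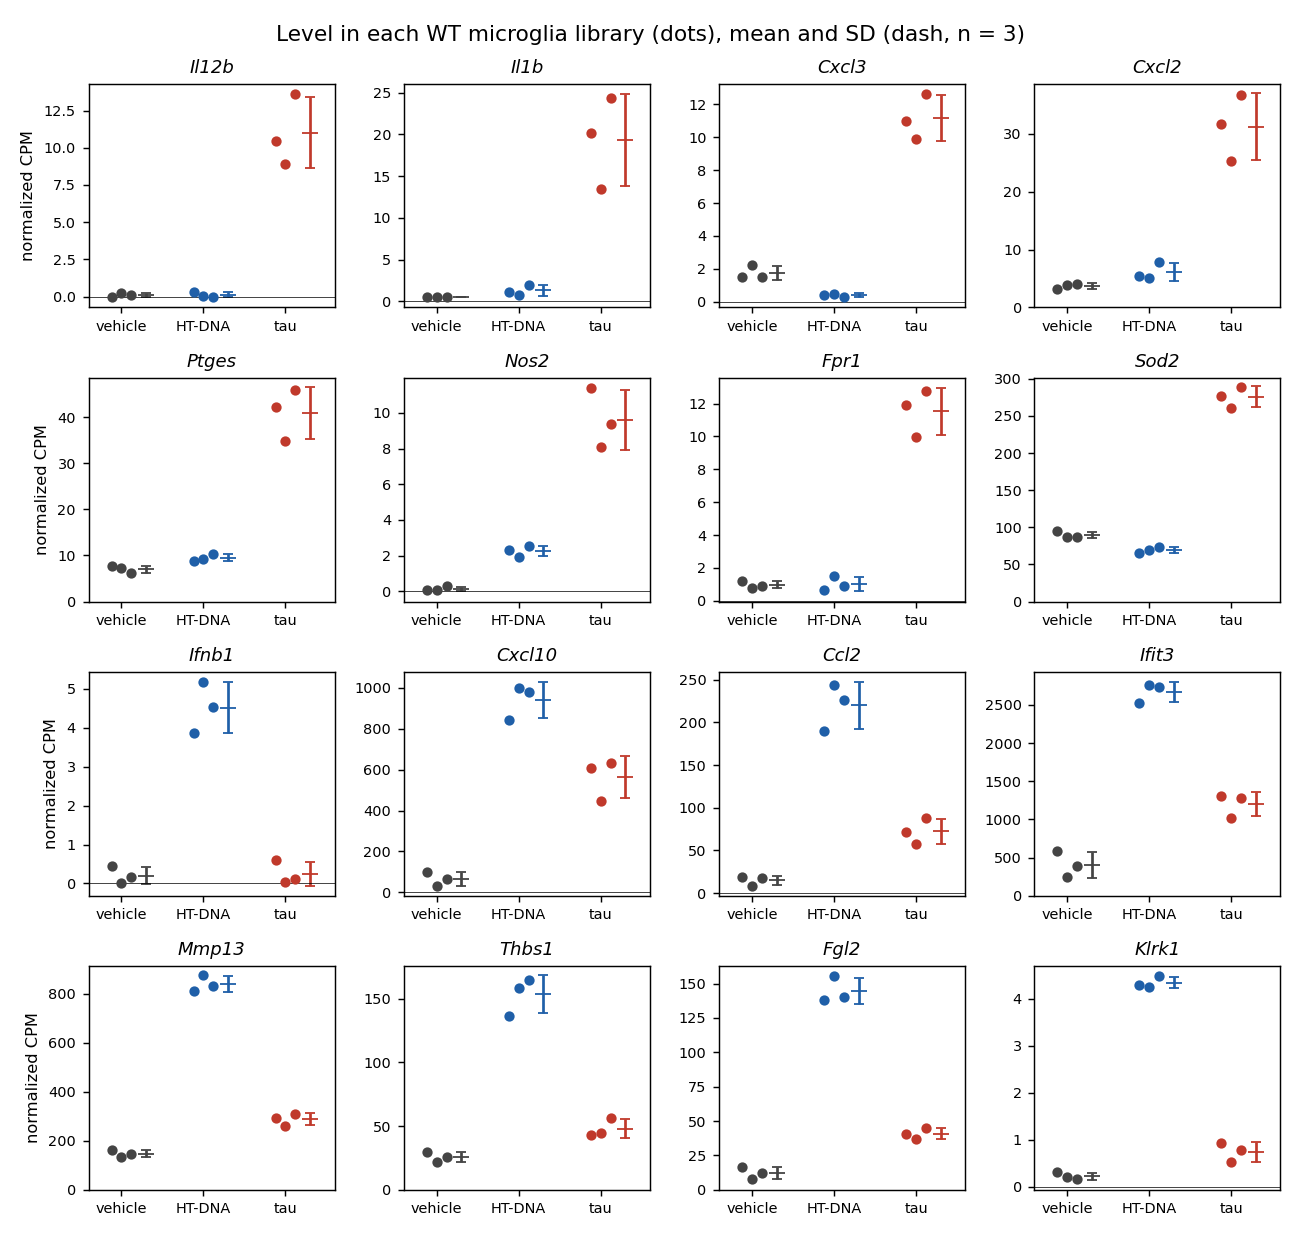
Normalized CPM of 16 genes in each WT library (dots), with the mean and SD of 3 libraries beside them (dash and bar), for vehicle (grey), HT-DNA (blue) and tau fibrils (red). In the upper 2 rows the tau libraries lie above all others. In the lower 2 rows the HT-DNA libraries lie above all others, and Ifnb1 with tau is near its vehicle level while Cxcl10 and Ifit3 with tau lie between vehicle and HT-DNA.

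Promoter sequences are shown for the largest named genes of each direction whose 250 bases before the start hold a kappa-B-like motif (GGNNTTTCC), which NF-kB can bind, or an ISRE-like motif (TTTCNNTTT, after the interferon-stimulated response element) on either strand. Of the 12 largest differences, 9 genes higher with tau and 7 higher with HT-DNA had an entry in the RefSeq promoter table (build GRCm38.p6), and 3 and 1 of these held a match. Capitals mark the matches, and sequences run 5′ to 3′ on the strand of the gene. The windows are chr5:90785851-90786100 (plus strand) for Cxcl3, chr5:90890995-90891244 (plus strand) for Cxcl1, chr17:37483555-37483804 (minus strand) for H2-M2 and chr4:88522795-88523044 (minus strand) for Ifnb1.
Cxcl3: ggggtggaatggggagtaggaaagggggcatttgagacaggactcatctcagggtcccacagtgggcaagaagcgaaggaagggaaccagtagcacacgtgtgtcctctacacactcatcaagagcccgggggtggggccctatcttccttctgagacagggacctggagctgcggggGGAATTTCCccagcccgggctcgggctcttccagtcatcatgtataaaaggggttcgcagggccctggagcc
Cxcl1: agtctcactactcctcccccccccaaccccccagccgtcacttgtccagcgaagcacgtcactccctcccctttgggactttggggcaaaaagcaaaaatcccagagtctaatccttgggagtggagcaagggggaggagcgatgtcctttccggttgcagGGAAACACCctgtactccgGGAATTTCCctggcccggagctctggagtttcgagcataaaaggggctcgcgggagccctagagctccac
H2-M2: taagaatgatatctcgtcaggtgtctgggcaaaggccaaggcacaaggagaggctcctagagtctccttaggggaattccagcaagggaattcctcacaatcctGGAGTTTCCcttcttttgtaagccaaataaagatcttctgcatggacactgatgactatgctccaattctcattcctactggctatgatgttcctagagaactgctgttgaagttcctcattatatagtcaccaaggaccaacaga
Ifnb1: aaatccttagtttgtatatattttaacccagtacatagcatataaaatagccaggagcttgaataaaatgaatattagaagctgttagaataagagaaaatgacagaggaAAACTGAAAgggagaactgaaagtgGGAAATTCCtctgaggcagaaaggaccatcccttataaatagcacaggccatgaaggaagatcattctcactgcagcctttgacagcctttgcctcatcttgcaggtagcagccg
Cxcl3 and Cxcl1 shared the letters GGAATTTCC, which began 72 and 70 bases before the start, and Cxcl1 held another match 89 bases before it. In the Ifnb1 promoter the ISRE-like match (140 bases before the start) preceded the kappa-B-like match (115 bases before it). The 2 motifs can overlap, since both hold TTTC, but did not overlap in these windows.

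Over the whole 300-base windows (250 bases before to 50 after the start), an ISRE-like match was found for 34 of the 132 genes higher with HT-DNA that had a promoter entry (25.8%), for 17 of 155 genes higher with tau (11%) and for 960 of the 9498 tested genes with an entry (10.1%). A kappa-B-like match was found for 12.1%, 8.39% and 7.48% of the same genes. Among 55 antiviral interferon-stimulated genes with an entry, a group looked up after the others, 69.1% held the ISRE-like letters. These shares are descriptions of short letter patterns and not of binding.

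Genes of the NF-kB pathway itself mostly differed by less than the minimum fold. Of 27 tested subunits and feedback inhibitors, 2 were higher with tau (1.73% of all genes were) and none with HT-DNA, while at the adjusted p alone 14 were higher with tau (18.1% of all genes) and 8 with HT-DNA (19.8%), and the median log2 fold change was 0.18. Traf1, an adaptor of tumour necrosis factor receptors, stood at 12.5, 8.08 and 10 CPM with tau and 1.3, 2.15 and 2.07 CPM with HT-DNA (log2 fold change 2.46, adjusted p = 2.76e-09). Irak3, an inhibitor of Toll-like receptor signalling, was 25.6 ± 1.57 CPM with tau against 9.71 ± 0.575 CPM with HT-DNA and 11.9 ± 0.622 CPM with vehicle (adjusted p = 8.42e-11). Other members passed the adjusted p without reaching the minimum fold, among them Icam1, an adhesion molecule (log2 fold change 0.91), and Tnfaip2 (0.70) on the tau side and Dusp1, a phosphatase of MAP kinases (-0.92), on the HT-DNA side.

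Enzymes that make prostaglandin and nitric oxide were higher with tau. In the list of 16 tested enzymes of nitric oxide, itaconate and prostaglandin metabolism, 4 were higher with tau, beside 1.73% of all tested genes, and 1 with HT-DNA. Ptges, which makes prostaglandin E2, stood at 42.1, 34.8 and 45.8 CPM with tau, 8.85, 9.31 and 10.4 CPM with HT-DNA and 7.66, 7.26 and 6.15 CPM with vehicle (log2 fold change 2.10, SE 0.10, adjusted p = 1.17e-12). Ptgs2 (cyclooxygenase 2), which acts before it, was 36.2 ± 9.11 CPM with tau and 12 ± 2.31 CPM with HT-DNA (adjusted p = 1.56e-08). Nos2, the inducible nitric oxide synthase, stood at 11.4, 8.08 and 9.38 CPM with tau and 2.33, 1.94 and 2.51 CPM with HT-DNA, against a vehicle mean of 0.119 CPM (log2 fold change 2.08, adjusted p = 4.02e-09). Sod2, the mitochondrial superoxide dismutase, was at 277, 261 and 289.6 CPM with tau and 66.1, 69.5 and 73.2 CPM with HT-DNA, the latter below the vehicle level of 89.7 ± 4.18 CPM (log2 fold change 1.99, SE 0.05, adjusted p = 5.65e-17). The member that went the other way was Arg1, the arginase that shares a substrate with Nos2, at 4.83, 6.67 and 5.89 CPM with HT-DNA and 0.927, 1.79 and 2.02 CPM with tau (log2 fold change -1.86, adjusted p = 1.24e-06). Acod1, which makes itaconate, was high with both stimuli (1324 ± 193 CPM with tau, 1166 ± 80.7 CPM with HT-DNA and 159 ± 52.2 CPM with vehicle) and differed by 0.19 on the log2 scale (adjusted p = 0.0446), with overlapping libraries.

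Genes of the antioxidant NRF2 response and of iron handling were mostly higher with tau. Of 27 tested members 7 were called higher with tau, beside 1.73% of all tested genes, and none with HT-DNA, while 25 were higher with tau at the adjusted p alone (18.1% of all genes were), and the median log2 fold change was 0.55. Srxn1, which restores oxidized peroxiredoxins, stood at 469, 472 and 484 CPM with tau, 219, 210.3 and 218 CPM with HT-DNA and 318, 310.1 and 284 CPM with vehicle (log2 fold change 1.14, SE 0.038, adjusted p = 3.73e-15). Gclm, a subunit of the enzyme that limits glutathione synthesis, was 406 ± 23 CPM with tau, 183 ± 6.87 CPM with HT-DNA and 257 ± 10.8 CPM with vehicle (adjusted p = 3.74e-14). For both genes the vehicle libraries lay between the stimuli, above all HT-DNA libraries and below all tau libraries. The other called members were Nqo1 (log2 fold change 1.43), Txnrd1 (1.04), Sqstm1 (1.04), Slc7a11 (1.03) and Lcn2 (1.08). Without HT-DNA replicate 2 or without tau replicate 3, Slc7a11, the cystine importer, fell just under the minimum fold. Hmox1, haem oxygenase 1, was 1702 ± 55.9 CPM with tau against 1160.3 ± 11.3 CPM with HT-DNA (log2 fold change 0.55, adjusted p = 6.35e-11).

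Pattern receptors of the innate phagocyte differed in both directions. Of 34 tested phagocytosis, scavenger and Fc receptor genes, 5 were higher with tau and 1 with HT-DNA, beside 1.73% and 1.64% of all tested genes. At the adjusted p alone the balance was reversed, with 18 higher with HT-DNA (19.8% of all genes) and 8 with tau (18.1%). The median log2 fold change was -0.16. Fpr1, a receptor for formylated peptides, stood at 11.9, 9.96 and 12.7 CPM with tau and 0.651, 1.51 and 0.873 CPM with HT-DNA (log2 fold change 3.5, SE 0.21, adjusted p = 2.68e-11). Its neighbour Fpr2 stood at 10.8, 11.8 and 13.3 CPM with tau and 4.67, 5 and 4.53 CPM with HT-DNA (log2 fold change 1.33, adjusted p = 3.78e-08). Clec4e, the glycolipid receptor Mincle, was 119.5 ± 10 CPM with tau, 29.5 ± 2.56 CPM with HT-DNA and 31.6 ± 5.11 CPM with vehicle (log2 fold change 2.02, adjusted p = 3.73e-15). Olr1, a receptor for oxidized lipoprotein (log2 fold change 1.37), and the complement component C3 (1.04) were also higher with tau. Fcgr4, an activating receptor for immunoglobulin G, went the other way at 110.5, 131 and 125 CPM with HT-DNA and 51.2, 39.7 and 56.7 CPM with tau (log2 fold change -1.31, adjusted p = 8.52e-11).

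The remaining genes among the 12 largest on the tau side had varied roles. Lox, which cross-links collagen, stood at 46.3, 45.7 and 52.1 CPM with tau, 8.3, 6.46 and 6.11 CPM with HT-DNA and 7.17, 5.4 and 4.53 CPM with vehicle (log2 fold change 2.79, SE 0.10, adjusted p = 4.98e-15). H2-M2, a nonclassical MHC class I gene, stood at 26, 25 and 30.5 CPM against 5.54, 3.17 and 2.95 CPM with HT-DNA (log2 fold change 2.80, adjusted p = 4.84e-12). Serpinb2, the plasminogen activator inhibitor of macrophages, was 3.1 ± 1.36 CPM with tau and 0.452 ± 0.167 CPM with HT-DNA (adjusted p = 4.98e-06). Clec4a1, a C-type lectin (log2 fold change 2.75), and Susd2, a membrane protein (2.77), were each under 7 CPM in every library. Zfp811, a zinc finger gene, had at most 1 read in each HT-DNA library and 54 to 58 in the tau libraries, so that its level was at least 17.5-fold higher with tau, counting the floor as 3 reads per library.

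A few tau-side genes are known from neurons or astrocytes and were at very low levels. Camk2a, a neuronal kinase, stood at 1.15, 1.51 and 2.18 CPM with tau and 0.326, 0.215 and 0.164 CPM with HT-DNA, with vehicle, at 1.02, 0.994 and 0.917 CPM, nearer to tau (log2 fold change 2.75, adjusted p = 3.58e-05). Snap25, a synaptic protein, and Slc1a2, the astrocytic glutamate transporter, were at most 3 reads in each HT-DNA library and were at least 4.41-fold and 5.89-fold higher with tau, respectively. The 10 neuron markers as a whole summed to 12.3 to 13.5 CPM with tau and 15.0 to 16.9 CPM with HT-DNA, most of it from Eno2 (9.98 to 10.7 CPM with tau and 13.4 to 15.0 CPM with HT-DNA). Other neuron markers were split. Syt1 (0.142 to 0.363 CPM with tau and 0 to 0.0543 CPM with HT-DNA) and Slc17a7 (0.331 to 0.491 CPM and 0 to 0.326 CPM) ran toward tau. Nefl ran with Eno2, at 0.164 to 0.363 CPM with tau and 0.434 to 0.915 CPM with HT-DNA. Of the 10 neuron markers, 2 with tau and 3 with HT-DNA were at or under 3 reads in every library. The 10 astrocyte markers summed to 11 to 13.5 CPM with tau and 13.4 to 16.7 CPM with HT-DNA, most of it from Aldh1l1 (5.53 to 8.12 CPM and 8.61 to 10.8 CPM). The part of other cells in these 3 genes was not tested. In bulk RNA, fewer cells of a type and less RNA per cell cannot be told apart.

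Ifnb1, the interferon-β gene (chromosome 4, 88522025 to 88522774 on the minus strand of GRCm38), was higher with HT-DNA. It stood at 3.85, 5.17 and 4.53 CPM in the HT-DNA libraries but at 0.6, 0.0472 and 0.104 CPM with tau and 0.443, 0 and 0.162 CPM with vehicle (log2 fold change -4.20, SE 0.40, adjusted p = 2.82e-08). This was the largest difference among the genes higher with HT-DNA, 18.4-fold, and the tau libraries overlapped the vehicle libraries. None of the other 20 listed interferon genes had enough counts for a test. The interferon-α gene with the most reads was Ifna2, with at most 5 reads in an HT-DNA library and 0 in every tau library.

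Antiviral interferon-stimulated genes were high with both stimuli and higher with HT-DNA. Of 69 tested members, 7 were called higher with HT-DNA, beside 1.64% of all tested genes, and none with tau, but 68 were lower with tau at the adjusted p alone (19.8% of all genes were), in a range of log2 fold changes from -1.71 to -0.15 with a median of -0.53. Ifit3, a partner of Ifit1 in binding viral RNA, stood at 2522, 2759.8 and 2738 CPM with HT-DNA, 1301, 1022 and 1282 CPM with tau and 582, 247 and 388 CPM with vehicle (log2 fold change -1.15, SE 0.063, adjusted p = 6.28e-12). Rsad2 (viperin), the antiviral enzyme that makes a chain-terminating nucleotide, was 6806 ± 388 CPM with HT-DNA, 3271 ± 543 CPM with tau and 719 ± 344 CPM with vehicle (log2 fold change -1.06, adjusted p = 3.13e-10). The other called members were Ifit1bl1 (-1.71), Ifit3b (-1.28), Cmpk2 (-1.22), Isg20 (-1.22) and Mx1 (-1.04). Mx1, a dynamin-like restriction factor, dropped under the minimum fold when tau replicate 2 was left out. Members of the Ifit family are close copies, so that reads may be split between them.

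Most members of the list differed by less than the minimum fold. Ddx60, a helicase, stood at 339.5, 355 and 354 CPM with HT-DNA and 205, 183 and 213 CPM with tau (log2 fold change -0.81). Sp100, a nuclear body protein, was 343 ± 2.74 CPM with HT-DNA and 228 ± 17.8 CPM with tau (log2 fold change -0.59), and Parp12 was 529 ± 10.7 CPM and 378 ± 19.5 CPM (-0.48). Rnf213 (-0.41) and Ifi35 (-0.38) differed less. All 5 passed the adjusted p without reaching the minimum fold, and the tau libraries of each lay below the HT-DNA libraries and above the vehicle libraries.

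Interferon-inducible GTPases, which attack the vacuoles of intracellular microbes, had the same direction. Of 18 tested members 3 were higher with HT-DNA, beside 1.64% of all tested genes, and none with tau, and the median log2 fold change was -0.73. Iigp1 stood at 118, 138 and 125 CPM with HT-DNA and 40.6, 32.2 and 45.8 CPM with tau, above 9.3, 3.46 and 5.82 CPM with vehicle (log2 fold change -1.69, SE 0.083, adjusted p = 1.38e-12). Tgtp2 (log2 fold change -1.52) and its near copy Tgtp1 (-1.15) were also called, the latter at low counts with overlapping libraries, and DESeq2 or a fit with the replicate number as a block called 2 of the 18. Gbp2 was 629 ± 44.2 CPM with HT-DNA and 371 ± 30.1 CPM with tau (log2 fold change -0.76, adjusted p = 3.35e-10).

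Chemokines of the receptor CXCR3, which draw T cells, were on the HT-DNA side. Cxcl10 stood at 841, 1001 and 981 CPM with HT-DNA, 609, 446 and 633 CPM with tau and 102, 33.5 and 67.5 CPM with vehicle (log2 fold change -0.74, SE 0.086, adjusted p = 4.96e-07), under the minimum fold. Cxcl11, annotated as a polymorphic pseudogene, was called, at 1.47, 2.69 and 3.06 CPM against 0.709, 0.614 and 1.19 CPM (log2 fold change -1.52, SE 0.34, adjusted p = 0.0013). Cxcl9 differed by -0.68 (adjusted p = 0.0113, and up to 0.122 under the alternative settings). Monocyte-attracting ligands of CCR2 were also higher with HT-DNA. Ccl2 stood at 190.1, 244 and 226 CPM with HT-DNA, 72.1, 57.6 and 87.4 CPM with tau and 18.9, 8.77 and 17.5 CPM with vehicle (log2 fold change -1.61, SE 0.10, adjusted p = 3.48e-11), and its neighbours on chromosome 11 Ccl12 (log2 fold change -1.45) and Ccl7 (-1.23) had the same order of the 3 groups. Ccl4 was 322 ± 25.5 CPM with HT-DNA and 137 ± 20.2 CPM with tau (log2 fold change -1.24, adjusted p = 2.88e-11). Ccl5 ran against them. It stood at 126, 109.7 and 129 CPM with tau and 40.8, 51.8 and 49.8 CPM with HT-DNA (log2 fold change 1.36, SE 0.073, adjusted p = 4.2e-12), both above the vehicle level of 15.2 ± 2.31 CPM. Of the 12 tested genes of that chemokine list, 4 were higher with HT-DNA and Ccl5 alone with tau, against 1.64% and 1.73% of all tested genes.

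Among 25 tested cytokines and growth factors, 5 were higher with HT-DNA (4 in DESeq2) and the above 3 with tau, against 1.64% and 1.73% of all tested genes. Tnfsf10 (TRAIL), a ligand of death receptors, stood at 96, 94.7 and 95.2 CPM with HT-DNA and 47.8, 39.2 and 50.4 CPM with tau (log2 fold change -1.06, adjusted p = 5.43e-11), and fell under the minimum fold without tau replicate 2. Hbegf, a ligand of the epidermal growth factor receptor, was 21.4 ± 1.5 CPM with HT-DNA, 8.29 ± 1.32 CPM with tau and 5.91 ± 0.376 CPM with vehicle (log2 fold change -1.38, adjusted p = 2.23e-09). Il18, unlike Il1b, was higher with HT-DNA (27 ± 2.37 CPM against 12.1 ± 1.06 CPM, log2 fold change -1.16, adjusted p = 1.91e-09). Il33 and Lif were called at under 2 CPM in every library.

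Immediate early genes and D-type cyclins were among the genes higher with HT-DNA. Of 21 tested immediate early transcription factors, 4 were higher with HT-DNA, beside 1.64% of all tested genes, and none with tau, with a median log2 fold change of -0.37. Fos stood at 62, 63.6 and 67.9 CPM with HT-DNA and 29, 26.6 and 29.3 CPM with tau, with vehicle at 21.3, 21.6 and 21.1 CPM (log2 fold change -1.19, SE 0.061, adjusted p = 2.32e-12). The orphan receptor Nr4a1 (log2 fold change -1.78), Nr4a2 (-1.32) and Fosb (-1.29) were the others. Among 40 cell cycle genes, 2 were higher with HT-DNA and 1 with tau, beside 1.64% and 1.73% of all tested genes. The 2 were the cyclins Ccnd1 and Ccnd2, which start the cycle. Ccnd1 stood at 437, 437 and 426 CPM with HT-DNA against 192, 187 and 198 CPM with tau (log2 fold change -1.17, adjusted p = 3.73e-15), while the median of the list was 0.28. Fam83d, a spindle protein and the single member called for tau, lost its call in DESeq2 (adjusted p = 0.34) and without HT-DNA replicate 1 (0.0585), HT-DNA replicate 2 (0.0581) or tau replicate 3 (0.0652).

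Proteases and other matrix genes were called in both directions, 5 of 19 for HT-DNA and 3 for tau, beside 1.64% and 1.73% of all tested genes. DESeq2 or the replicate block called 4 for HT-DNA. Mmp13, a collagenase, stood at 811, 876 and 829.7 CPM with HT-DNA, 295, 262 and 309.5 CPM with tau and 161, 133 and 146 CPM with vehicle (log2 fold change -1.54, SE 0.051, adjusted p = 3.73e-15). Thbs1 (thrombospondin 1) stood at 137, 159 and 165 CPM with HT-DNA and 43.4, 44.5 and 56.5 CPM with tau (log2 fold change -1.67, adjusted p = 6.59e-13). Plau, the urokinase that activates plasminogen, was 1955 ± 45.1 CPM with HT-DNA, 938 ± 24.2 CPM with tau and 1226 ± 7.9 CPM with vehicle, so that vehicle lay between the stimuli (log2 fold change -1.06, adjusted p = 3.73e-15). Tnc (tenascin C) was also called on the HT-DNA side, with 1 tau library, at 7.15 CPM, among the HT-DNA libraries. Serpinb2, Lcn2 and the coagulation factor F10 (log2 fold change 1.11) were on the tau side.

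Other genes of the 12 largest on the HT-DNA side ranged from immune genes to genes of low level. Fgl2, a fibrinogen-like immune protein, stood at 138, 155 and 140.5 CPM with HT-DNA, 40.6, 36.8 and 45.2 CPM with tau and 16.4, 7.78 and 12.5 CPM with vehicle (log2 fold change -1.83, SE 0.064, adjusted p = 4.98e-15). Klrk1, the receptor NKG2D of cytotoxic lymphocytes, was at 4.29, 4.25 and 4.48 CPM with HT-DNA and 0.927, 0.519 and 0.777 CPM with tau (log2 fold change -2.55, adjusted p = 4.98e-08), in libraries whose 10 lymphocyte markers summed to 0.49 to 0.87 CPM. The noncoding genes Gm9869 (log2 fold change -2.90) and Gm15998 (-2.59) are annotated antisense to Uaca and Efna3, which were themselves higher with HT-DNA (-1.58 and -1.57), and Gm38357 (-1.83) lies within Noct (-1.58). How strand was used in counting is not given in the sources used here, so that reads of each pair cannot be told apart. Hba-a1, an α-globin gene with a near-identical copy (log2 fold change -2.01), and Syt4 (-1.98), Pcdh17 (-1.91), Foxf1 (-1.89) and Anks1b (-1.88) were each under 5 CPM in every library.

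Summed markers of some other cell types were higher with HT-DNA as well, while those of peripheral myeloid cells were higher with tau. The 10 fibroblast and vascular markers summed to 109.5 to 119 CPM with HT-DNA, 48.7 to 56.2 CPM with tau and 22.6 to 30.8 CPM with vehicle, and Kdr, a receptor for vascular endothelial growth factor, made up most of the sum (104, 111 and 111 CPM with HT-DNA and 50.7, 41.9 and 52.8 CPM with tau). The collagen genes Col1a1, Col1a2 and Col3a1 were each at most 2.08 CPM in these 6 libraries. Oligodendrocyte-lineage markers summed to 704 to 720.5 CPM with HT-DNA and 585 to 612 CPM with tau, most of it from Cspg4 (491.5 to 499.2 CPM and 454.1 to 471.5 CPM). Of 7 tested, 3 were higher with HT-DNA, beside 1.64% of all tested genes. Mag overlapped, at 7.056 to 10.15 CPM with HT-DNA and 8.081 to 10.47 CPM with tau, and Sox10 and Olig2 were under 1 CPM. Markers of peripheral myeloid cells summed to 272 to 284.5 CPM with HT-DNA and 298.5 to 328 CPM with tau, almost all from Ms4a7. None of the 4 tested was called higher with tau, and Ms4a4a alone was called higher with HT-DNA, beside 1.64% of all tested genes. Ms4a4a stood at 9.74 to 10.53 CPM with HT-DNA and 2.503 to 3.937 CPM with tau. Ccr2 and S100a8 overlapped, and Ly6g, Cd177 and S100a9 were at 0 in every WT HT-DNA and tau library. The part of these markers in the differences above was not tested.

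Several lists held few calls or none. No gene was called, except 1 of the stress response genes with the replicate block, among 26 disease-associated microglia genes (median log2 fold change -0.19), 20 genes of the unfolded protein and integrated stress responses (0.12), 24 IRF, STAT and SOCS genes (-0.14), 19 nucleic acid sensors and adaptors (-0.28), 21 glycolysis and hypoxia genes (-0.055), 9 costimulatory ligands (-0.19) or 5 MHC class II genes (0.034). Genes within these lists nevertheless passed the adjusted p, at which 19.8% of all genes were higher with HT-DNA and 18.1% with tau. Of the disease-associated genes 17 were higher with HT-DNA and 1 with tau. These counts were 13 and 3 for IRF, STAT and SOCS genes and 12 and 4 for sensors and adaptors. They were 8 and 2 for glycolysis and hypoxia genes, 5 and 0 for costimulatory ligands and 1 and 0 for MHC class II genes. The stress response genes ran the other way, at 6 and 9. Spp1, the most abundant transcript among the disease-associated genes, was 39291 ± 459 CPM with HT-DNA and 28384 ± 487 CPM with tau (log2 fold change -0.47, adjusted p = 6.36e-12). The endosomal RNA sensor Tlr3 (-0.90) was lower with tau and the kinase Ikbke (0.74) higher. Hspa5, the chaperone of the endoplasmic reticulum (-0.69), was lower with tau while Asns, which makes asparagine (0.89), was higher, and Pfkfb3, an activator of glycolysis (-0.93), was lower.

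Among 24 homeostatic microglia genes 2 were higher with HT-DNA, beside 1.64% of all tested genes. P2ry12, a purine receptor of resting microglia, stood at 18.3, 19.1 and 18.7 CPM with HT-DNA, 8.61, 8.83 and 9.48 CPM with tau and 9.17, 8.69 and 10.3 CPM with vehicle (log2 fold change -1.06, adjusted p = 1.19e-08). Slco2b1, an organic anion carrier, stood at 21.1, 20.1 and 20 CPM with HT-DNA and 8.61, 9.3 and 9.12 CPM with tau, both below the vehicle level of 28.9 ± 1.83 CPM (log2 fold change -1.17, adjusted p = 1.69e-09). Csf1r, the receptor on which microglia depend, was 1238 ± 30.4 CPM with tau, 829 ± 17.2 CPM with HT-DNA and 983 ± 11.8 CPM with vehicle (log2 fold change 0.58). Of 21 MHC class I and immunoproteasome genes 2 were higher with tau, beside 1.73% of all tested genes, and none with HT-DNA. At the adjusted p alone 12 were higher with HT-DNA (19.8% of all genes) and 3 with tau (18.1%), and the median was -0.23. The 2 called genes were H2-Q7 (1.13) and H2-Q6 (1.02). They are close copies of each other and uncertain, and H2-Q6 fell under the minimum fold without HT-DNA replicate 1, tau replicate 1 or tau replicate 3. The death receptor Fas (1.40) and the sterol carrier Stard4 (1.17), higher with tau, were the single calls of 19 cell death and 22 cholesterol genes. On the HT-DNA side the p53 target Perp (-1.12) was the single call of 16 p53 genes, and its call was lost in DESeq2. Of all tested genes 1.73% were called for tau and 1.64% for HT-DNA.

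**Figure D3:**
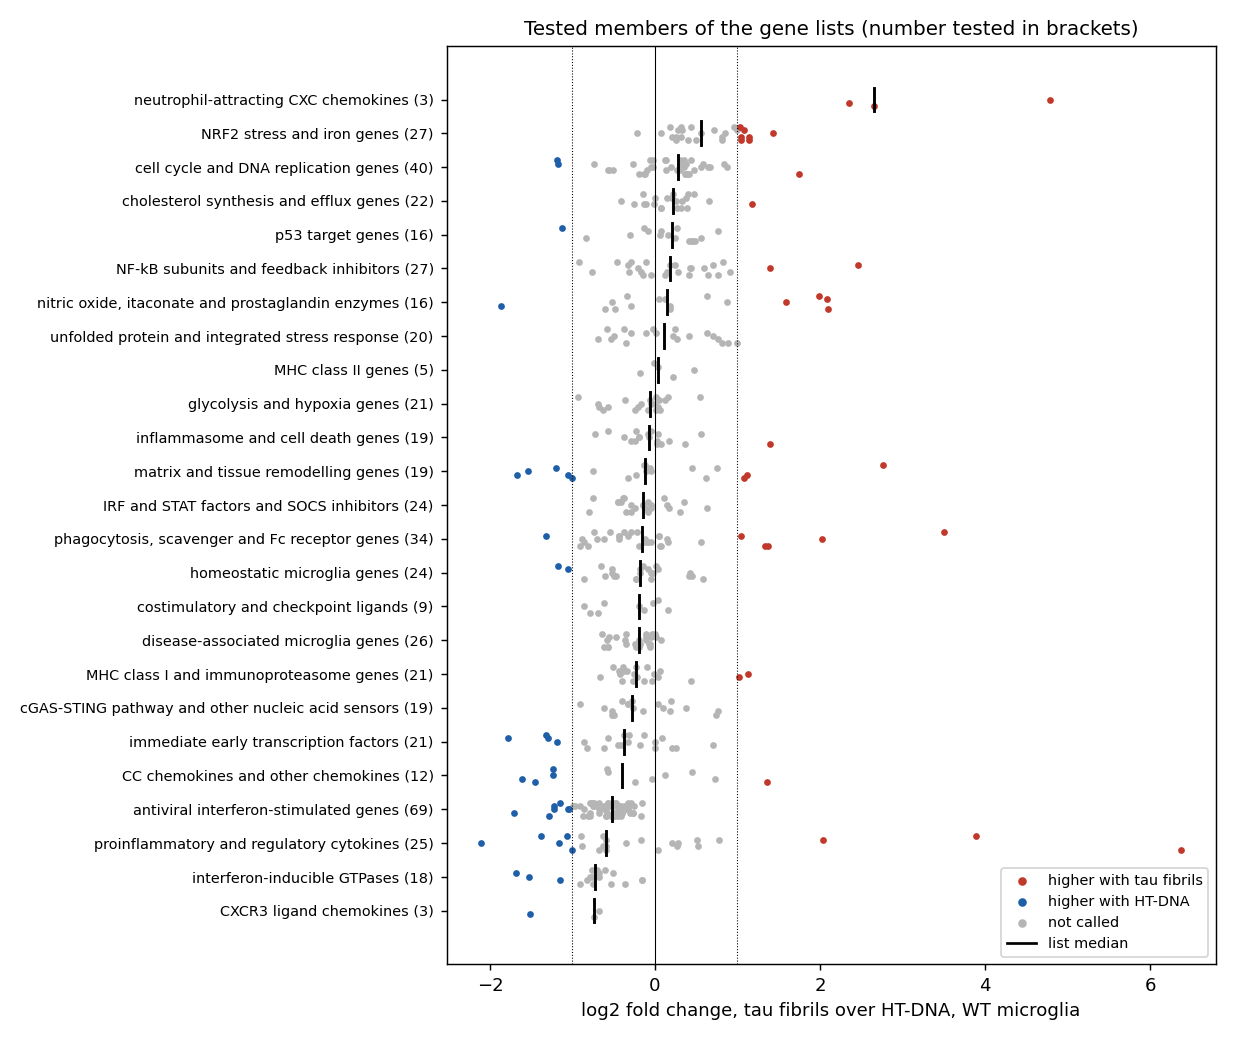
Log2 fold change of tau fibrils over HT-DNA in WT microglia (x axis) for each tested member of 25 gene lists (y axis, number tested in brackets), with red members higher with tau, blue members higher with HT-DNA, grey members not called and black bars at the list medians. The neutrophil-attracting chemokines lie on the tau side and all 69 antiviral interferon-stimulated genes lie below 0, while cytokines and matrix genes reach both ends.

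The vehicle libraries lay differently on each side. Of the 208 genes higher with HT-DNA, the vehicle mean was below both stimuli in 128 (61.5%), between them in 76 (36.5%) and above both in 4 (1.92%). Of the 220 genes higher with tau, it was below both in 39 (17.7%), between them in 125 (56.8%) and above both in 56 (25.5%). The first pattern was that of Mmp13 and Ccl2 and the second that of Srxn1 and Sod2, whose HT-DNA libraries all lay below their vehicle libraries. Rassf4, the gene with the smallest p of the comparison, was also of this kind, at 278, 274 and 281 CPM with tau, 75.2, 71.2 and 75.7 CPM with HT-DNA and 129, 138 and 133 CPM with vehicle (log2 fold change 1.91, SE 0.043, adjusted p = 1.15e-17). Protein-coding genes made up 89.5% of the annotated genes higher with tau, 83.1% of those higher with HT-DNA and 90.5% of all tested genes.

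Genes of the same direction lay side by side on several chromosomes. On chromosome 11, Ccl2, Ccl7 and Ccl12 occupied positions 82035571 to 82103400. On chromosome 19, Ifit3, Ifit1bl1 and Ifit3b occupied positions 34583531 to 34613401, and on chromosome 12 Rsad2 and Cmpk2 were neighbours between 26442746 and 26479837, all higher with HT-DNA. On the tau side Has1, Fpr1 and Fpr2 were neighbours on chromosome 17 (17843323 to 17893952), as were the paired receptors Pilra, Pilrb1 and Pilrb2 on chromosome 5 (137821952 to 137871815).

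The same contrast in Cgas KO microglia, which share no library with the WT comparison, shows how the stimuli differed in cells without cGAS. There 12768 genes were tested, of which 299 were higher with tau (2.34%) and 18 with HT-DNA (0.141%), with a median log2 fold change of -0.0061. The 18 became 10 in DESeq2 and 29 without a filter on low counts. HT-DNA replicate 1 of the Cgas KO cells stood further from replicates 2 and 3 than those did from each other, and without it the counts were 302 and 17. Of the 220 genes higher with tau in WT cells, 200 were tested in Cgas KO cells, and 47 of these (23.5%, beside 2.34% of all genes) were higher with tau there and none with HT-DNA. Of the 208 genes higher with HT-DNA in WT cells, 127 were tested, and 25 (19.7%, beside the same 2.34%) were higher with tau in Cgas KO cells, the opposite direction, while 2 (1.57%), Slco2b1 and Emp1, were higher with HT-DNA, beside 0.141% of all genes. The difference between the genotypes was itself tested as an interaction over all 18 microglia libraries, and passed an adjusted p of 0.05 for 3681 of 13675 genes (26.9%). Genes with few reads under both stimuli in Cgas KO cells are left out of these counts.

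**Figure D4:**
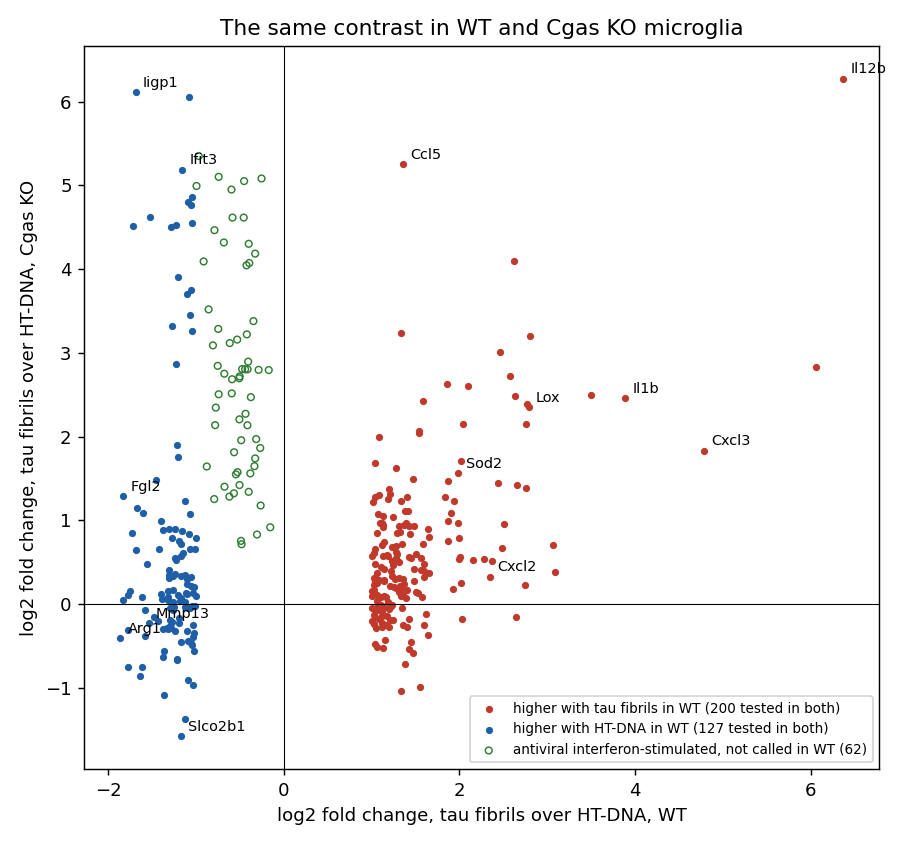
Log2 fold change of tau fibrils over HT-DNA in WT (x axis) and Cgas KO microglia (y axis) for genes called in WT cells and tested in both, 200 higher with tau (red) and 127 higher with HT-DNA (blue), and for 62 antiviral interferon-stimulated genes not called in WT cells (green circles). The green circles and part of the blue points lie at upper left, lower with tau in WT cells and higher with tau in Cgas KO cells, while Il12b is high on both axes.

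Interferon-stimulated genes had the opposite order in Cgas KO cells. Of the 69 antiviral genes, 65 were higher with tau in Cgas KO cells, with a median log2 fold change of 2.80 (2.71 and again 65 genes without HT-DNA replicate 1), and of 15 tested GTPases 14 were (median 3.31). Ifit3 stood at 1.69, 5.25 and 1.8 CPM with HT-DNA and 126, 101 and 106 CPM with tau in Cgas KO cells, against a vehicle level of 1.42 ± 0.262 CPM, and the log2 fold change was 5.19 there and -1.15 in WT cells (interaction adjusted p = 1.24e-14). All these levels lay below the WT vehicle level of 406 ± 168 CPM. Cxcl10 behaved alike, at 24.9, 23.8 and 20.8 CPM with tau and 0.794, 2.37 and 0.752 CPM with HT-DNA (log2 fold change 4.09, interaction adjusted p = 1.19e-09). Ccl5, already higher with tau in WT cells, was 29.6 ± 2.09 CPM with tau and 0.781 ± 0.387 CPM with HT-DNA in Cgas KO cells (log2 fold change 5.25, interaction adjusted p = 2.18e-12). Ifnb1 had too few reads in Cgas KO cells to be tested.

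Inflammatory genes of the tau side kept their order in Cgas KO cells to differing degrees. Il12b stood at 6.39, 5.82 and 6.18 CPM with tau and 0.053, 0.0802 and 0.0835 CPM with HT-DNA, a log2 fold change of 6.27 with an SE of 0.32. The difference from WT cells was 0.11 (adjusted p = 0.977). Its SE of 1.78 was derived from the F statistic and is unreliable for so small a difference. Lox was 59.6 ± 0.514 CPM with tau and 11.7 ± 1.98 CPM with HT-DNA (log2 fold change 2.35, SE 0.085), and the difference from WT cells was 0.43 with an SE of 0.17 (adjusted p = 0.0552). Il6 (log2 fold change 2.16), H2-M2 (3.20), Ptges (2.6) and Clec4e (1.71) were higher with tau in both genotypes. The difference was smaller in Cgas KO cells for Il1b (2.46 against 3.89, interaction adjusted p = 0.00348), Sod2 (1.57 against 1.99, 0.000158) and Cxcl3 (1.83 against 4.79, 2.31e-07). For Cxcl2 it missed the threshold there, at 16.4 ± 1.59 CPM with tau and 13 ± 2.36 CPM with HT-DNA (log2 fold change 0.33, adjusted p = 0.0561, interaction adjusted p = 1.23e-08).

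Other HT-DNA-side genes lost most of their difference in Cgas KO cells. Mmp13 was 78.7 ± 1.37 CPM with HT-DNA and 67.4 ± 1.86 CPM with tau there (log2 fold change -0.23, against -1.54 in WT cells, interaction adjusted p = 1.32e-12). Fos (log2 fold change -0.22, interaction adjusted p = 4.93e-08), Fcgr4 (0.08, 3.78e-08) and Ccl4 (-0.32, 7.62e-05) were alike in this. Ccl2 (1.09, 2.22e-09) and Thbs1 (1.15, 2.3e-14) changed sign and were higher with tau in Cgas KO cells. Slco2b1 was higher with HT-DNA in both genotypes (log2 fold change -1.58 in Cgas KO cells, adjusted p = 0.00129). Arg1 stood at a far higher level in Cgas KO cells whatever the treatment, 90.4 ± 7.89 CPM with vehicle, 77.7 ± 6.12 CPM with HT-DNA and 58.9 ± 6.29 CPM with tau, against 1.49 ± 0.0895 CPM with vehicle in WT cells. Of the NRF2 genes, 1 of 27 was called higher with tau in Cgas KO cells, close to the 2.34% of all genes, and the median log2 fold change of the list was 0.30.

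**Figure D5:**
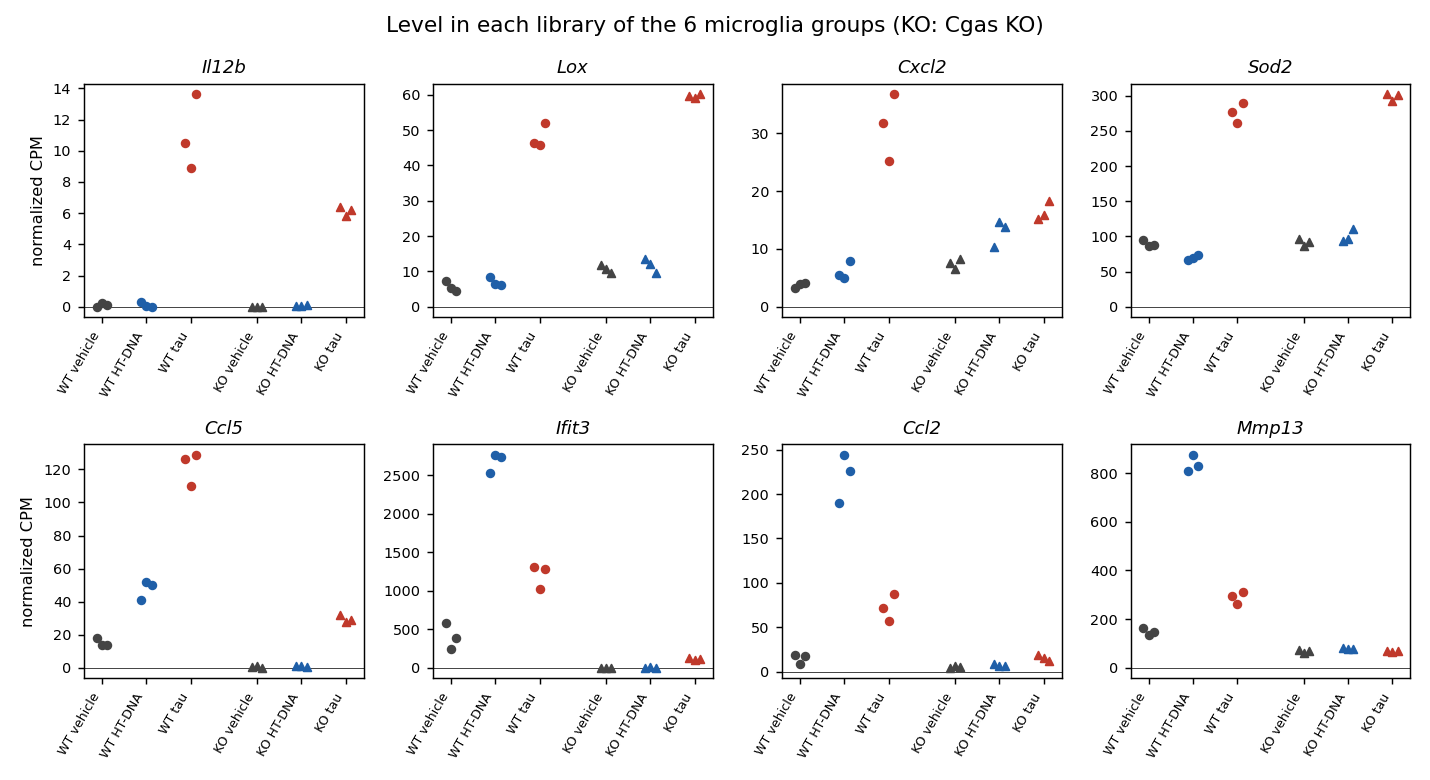
Normalized CPM of 8 genes (y axes, one scale per gene) in each library of the 6 microglia groups, with WT libraries as circles and Cgas KO libraries as triangles, in grey for vehicle, blue for HT-DNA and red for tau fibrils. Il12b, Lox and Sod2 are highest with tau in both genotypes, Ifit3 and Ccl2 are highest with HT-DNA in WT cells but with tau in Cgas KO cells, and Mmp13 stands apart with HT-DNA in WT cells only.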

How the data were processed

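RNA sequencing of primary mouse microglia was analysed in 18 libraries, 3 for each of 6 groups (WT or Cgas KO, given vehicle, HT-DNA or tau fibrils). The remaining samples of the series, from hippocampus, were not used here. Per the labels, libraries were made with a 3′ mRNA kit, so that reads come from transcript ends. The authors deposited a table of raw read counts per gene (54532 genes, symbols included). The submitters' processing notes name GRCm38, edgeR and limma, and the aligner, the counter, the annotation and the use of strand are not given in the sources used here.

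Counts of the 6 WT libraries compared were filtered with filterByExpr, scaled by TMM and tested with edgeR's quasi-likelihood test (edgeR 4.0.16, R 4.3.3) with Benjamini-Hochberg adjustment over 12709 genes, with thresholds of 0.05 for the adjusted p and of 1 for the absolute log2 fold change. The same was done in the Cgas KO libraries, and the difference between genotypes was tested in 1 fit of all 18 libraries. An exact permutation test of 3 against 3 libraries cannot go below 0.1 and was not used. The test was tried on simulated counts for the 12709 genes of the WT comparison, at the adjusted p alone, without the minimum fold. Of genes changed by 1.5 on the log2 scale 91.9% to 97.0% were recovered, and of those changed by 2.5, 99% to 100%. Of the simulated calls, 4.08% to 5.83% were false. Far fewer genes were changed than passed the adjusted p in the WT data, so these shares are not error rates of the calls above. P-values measure the spread between these libraries. Each SE is the one implied by the F test, the absolute log2 fold change divided by the square root of F. It is unreliable where the fold change is near 0.

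The gene lists, the markers and the rule for named genes were chosen with earlier results of these data known. The rule took the 12 largest called differences in each direction with no overlap between groups and a mean of at least 20 reads in the higher group, genes the study names for this experiment, Cgas, and up to 4 members of each list by smallest p, together with members that went against their list. Other called list members, the marker genes, Rassf4, Emp1, Uaca, Efna3, Noct, Has1, Pilra, Pilrb1 and Pilrb2 were named after their values were seen. A few genes that the rule names are not reported here. A gene with at most 3 reads in every library of a group was treated as at the floor, and a fold against it is a bound. Floors cover counting error only. Gene positions are from GENCODE vM21 and promoters from RefSeq (GRCm38.p6), matched by symbol. Alternatives were DESeq2 1.42.0, RLE scaling, no or a stricter low-count filter, a replicate block, a joint fit, no minimum fold change and leaving out each library.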

Additional observations from a re-analysis of the deposited data

Results flagged for a closer look

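The difference between tau and HT-DNA was itself different in WT and Cgas KO microglia for 3681 of 13675 genes by the interaction in edgeR's quasi-likelihood test (Benjamini-Hochberg adjusted p under 0.05, all 18 libraries, 3 a group). The values below are the WT minus the Cgas KO log2 fold change of tau over HT-DNA, for the largest WT differences and genes the study names.

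On the tau side the difference was larger in WT cells for Zfp811 (3.25, adjusted p = 0.0366), Cxcl3 (2.95, adjusted p = 2.31e-07), Camk2a (2.52, adjusted p = 0.000751), Il1b (1.42, adjusted p = 0.00348) and Fpr1 (1, adjusted p = 0.0192). In the WT HT-DNA libraries Zfp811 had at most 1 read and Camk2a 3 to 6 reads, while Camk2a had 23 to 32 reads in the Cgas KO HT-DNA libraries.

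Interferon-related genes moved the other way, with Cxcl10 at -4.83, Ddx60 at -3.90, Ccl5 at -3.90, Sp100 at -3.28, Rnf213 at -3.22, Isg20 at -3.12, Parp12 at -2.45 and Ifi35 at -1.95 (adjusted p between 4.38e-17 for Sp100 and 1.19e-09 for Cxcl10). All of these were called higher with tau in Cgas KO cells, and all but Ccl5 had a lower level with tau than with HT-DNA in WT cells. Fgl2 stood at -3.12 (adjusted p = 2.44e-12) and Arg1 at -1.46 (adjusted p = 1.15e-05).

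Genes of low level had large values with wide errors, Gm15998 at -7.04 (adjusted p = 0.00165), Klrk1 at -6.21 (adjusted p = 0.0014), Foxf1 at -5.52 (adjusted p = 0.000926), Hba-a1 at -3.81 (adjusted p = 0.00222) and Gm38357 at -1.89 (adjusted p = 0.0245). Mb21d1, the Cgas gene that is disrupted in the Cgas KO cells, stood at -1.11 (adjusted p = 7.09e-06).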

How the results depend on the processing

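With no minimum fold change, 2305 and 2513 genes were higher with tau and with HT-DNA in WT cells, and 1275 and 839 in Cgas KO cells. The 18 genes higher with HT-DNA in Cgas KO cells became 10 in DESeq2 and 29 without a filter on low counts, and 13 to 21 under the other alternatives that kept all libraries. Under every other alternative the counts moved by less than 1.5 times: in WT cells 220 became 172 to 268 and 208 became 154 to 255, in Cgas KO cells 299 became 274 to 326, and the 3681 genotype differences became 3391 to 3694. Leaving out each library gave 209 to 246 and 201 to 239 genes in WT cells, 286 to 307 and 17 to 24 in Cgas KO cells, and 3201 to 3596 genotype differences. Which genes were called moved more than the counts: without WT tau replicate 2, 155 of the 208 genes higher with HT-DNA remained. Deviations of same-numbered libraries from their group means correlated at -0.0387, -0.0359 and 0.0401 in WT cells. In Cgas KO cells the values were 0.0735, -0.0441 and 0.0698. So few values cannot show whether replicate numbers pair the libraries. With the replicate block, 219 and 198 genes were called in WT cells, 299 and 18 in Cgas KO cells, and 3633 genotype differences. Of 59 called named genes, 54 kept their call under every alternative, and the exceptions were Fam83d, H2-Q6, Mx1, Slc7a11 and Tnfsf10. No called named gene changed direction, and H2-DMa, which was not called (0.034 on the log2 scale), turned to -0.09 at the lowest when a library was left out. In DESeq2 the single p53 call and 1 of 5 cytokine calls on the HT-DNA side were lost, as was 1 of 5 matrix calls in DESeq2 and with the block. Depth limits the genes under 2 CPM in their higher group, 81 of the 220 and 78 of the 208.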
